A study of Mus musculus with 2 samples.

Results

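The Myc family and nucleolar genes of ribosome biogenesis were examined in mouse neural retinal progenitor cells (mNRPCs) and in mouse retina. The set holds 10 genes, namely Myc, Mycn, Mycl, Max, Ncl, Npm1, Fbl, Nop56, Nop58 and Dkc1, out of 31253 genes to which the transcript rows of the table could be assigned. They were taken by name from a list, with rows of a gene summed, and each of the 10 was found. The mNRPC library came from cultured C57BL/6 retinal progenitors at passage 24, sample 427NR-P24. According to the study's methods, such cells come from the neural retina of adult mice and are grown in a defined medium with bFGF, a fibroblast growth factor, and CHIR99021, a blocker of the kinase GSK3. How many cultures or animals went into each library is not given in the sources used here. The retina library came from C57BL/6 retina tissue, whose age the labels do not give. Each group had 1 library, so no difference below has a replicate check and no p-value was calculated. A retina is a mixture of cell types, and fewer cells of a type cannot be told apart from less RNA per cell.

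Myc proteins are transcription factors that bind DNA as dimers with Max, with the sequence CACGTG, called an E-box, as their preferred site. Mxd, Mnt and Mga proteins compete for Max and repress at such sites. Genes for making ribosomes are among the best-known Myc targets. In the nucleolus, RNA polymerase I makes the ribosomal RNA precursor, small nucleolar ribonucleoproteins (snoRNPs) modify it, and assembly factors build the 2 ribosomal subunits from it. In the developing retina, Mycn is known as the family member of progenitor growth.

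Expression is given in FPKM, a count of sequenced fragments divided by transcript length and by the size of the library. As this unit is per length, levels of different genes can be set side by side. The log2 ratio is log2((mNRPC FPKM + 1)/(retina FPKM + 1)), which understates differences of low genes. A gene is called at least 2-fold higher or lower by this log2 ratio (1 or more, −1 or less), so a few genes not called have FPKM ratios just over 2. The depth was estimated at 6.47e+06 fragments in mNRPCs and 4.92e+06 in retina, and 3 fragments of a transcript of 2000 bases correspond to 0.232 and 0.305 FPKM. Fixed markers went with the labels. The 10 rod markers summed to 11.9 FPKM in mNRPCs and 28400 FPKM in retina, and the 6 Müller glia markers to 54.1 and 1926 FPKM. The 8 markers of progenitors and cycling cells summed to 1134 and 219 FPKM, all 8 at or above 1 FPKM in mNRPCs and 4 in retina. Among these, Sox2 was at 231 and 18.5 FPKM and Mki67, a marker of cycling cells, at 35.6 and 0.0986 FPKM. Pax6, of the same list, was closer to level, at 122.6 FPKM in mNRPCs and 100.7 FPKM in retina. The 7 fibroblast markers summed to 459 and 6.86 FPKM, mostly from Col3a1 in mNRPCs (449.8 FPKM), while Pdgfrb was at 4.49 and 1.24 FPKM, Pdgfra at 1.76 and 1.23 FPKM, Col1a1 at 1.35 and 0.552 FPKM, Dcn at 1.964 and 2.578 FPKM, Col1a2 at 0.0843 and 0.952 FPKM and Lum listed at 0 in both. Of 6 microglia markers 5 were listed at 0 in mNRPCs, and the sum in retina was 5.25 FPKM. The part of these differences in cell makeup and cycling in the results below was not tested.

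Of the 10 genes, 4 were at least 2-fold higher in mNRPCs, 1 was at least 2-fold lower and 5 lay between. Among the 13780 genes with at least 1 FPKM in a library, 24.5% were at least 2-fold higher and 30.0% at least 2-fold lower. The higher genes were Myc, Npm1, Fbl and Nop58, and the lower gene was Mycn. With 5 instead of 1 added to each FPKM, Mycn was at −0.56 and was not called. A minimum of 5 FPKM left Mycn out. The median log2 ratio of the 10 genes was 0.70, against −0.12 for the 13780 genes.

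**Figure D1:**
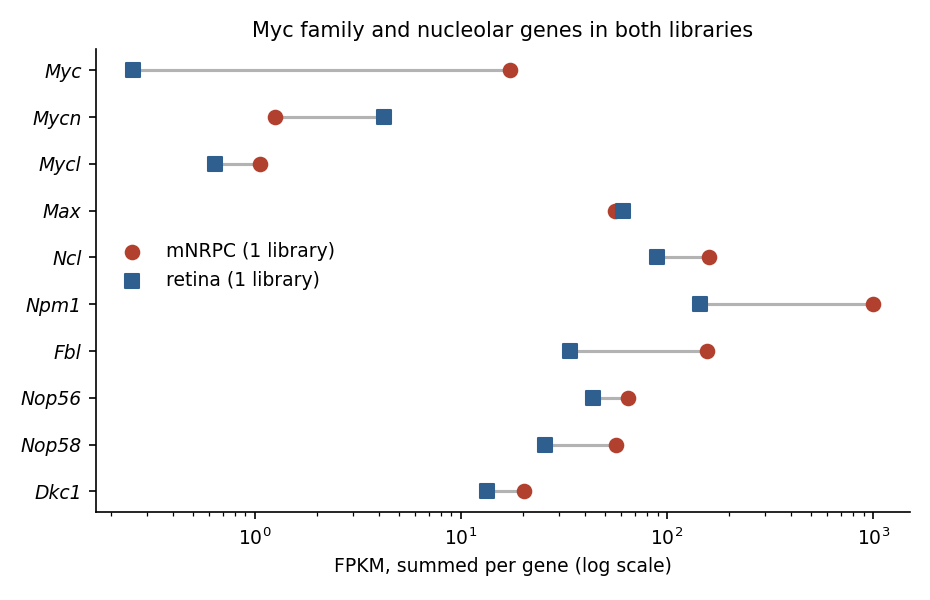
FPKM of the 10 genes on a log axis, 1 point per library, joined by a line for each gene. Myc (17.3 against 0.257 FPKM) and Npm1 (995 against 145 FPKM) are far apart, Max nearly coincides, and Mycn is the gene with a clearly higher point in retina.

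Among the Myc family, the dominant gene differed between the libraries. Myc, the broadly used member of proliferating cells, was at 17.3 FPKM in mNRPCs and 0.257 FPKM in retina. The retina value of Myc came to an estimated 2.80 fragments, under the floor of 3 fragments, and the mNRPC value to 256. The ratio of the Myc levels was 67.1, with a 95% counting interval of 21.1 to 305 (exact binomial, on estimated fragments), and its log2 ratio was 3.86. Such intervals cover counting error alone and say nothing of the spread between cultures or animals.

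Mycn, the member named for neuroblastoma, went the other way, with 1.25 FPKM in mNRPCs and 4.22 FPKM in retina. Its level in mNRPCs was 0.297 times that of retina (95% counting interval 0.177 to 0.507), a log2 ratio of −1.21. Mycl, the family member first found in lung cancer, was low in both, at 1.06 FPKM in mNRPCs and 0.640 FPKM in retina, and the counting interval of its ratio (0.746 to 3.62) included 1. Of the summed FPKM of the family, Myc held 88.2% in mNRPCs and 5.03% in retina. Mycn held 6.40% in mNRPCs and 82.5% in retina, and Mycl 5.43% and 12.5%. The family sum was 19.6 FPKM in mNRPCs and 5.12 FPKM in retina, a ratio of 3.83.

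The 4 rows of Myc form 2 pairs with equal values. With each pair counted once, Myc was at 8.63 FPKM in mNRPCs and 0.129 FPKM in retina. These were an estimated 126 and 1.32 fragments, so the counting interval of the ratio widened to 15.6 to 3520.4, and the log2 ratio was 3.09. Its share of the family was then 78.8% and 2.58%, and the order of the 3 genes within each library was unchanged by this. The family sum was then 10.95 FPKM in mNRPCs and 4.99 FPKM in retina, a ratio of 2.20 instead of 3.83.

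Max, the shared partner, was at 55.7 FPKM in mNRPCs and 61.2 FPKM in retina, a log2 ratio of −0.13. Its counting interval as deposited (0.813 to 1.02 times the retina level) included 1. When the FPKM sums of both libraries were set equal, the log2 ratio of Max was −0.64, while the typical gene shifted to a median of −0.68. With the respective all-gene median subtracted, Max came to 0.041 with equal sums and to −0.015 as deposited. Max thus lay close to the middle of all genes on each of these scales. Max exceeded the summed Myc family in both libraries, and that sum was 35.2% of the Max level in mNRPCs and 8.36% in retina, or 19.7% and 8.15% with equal Myc rows counted once.

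The competitors of Myc for Max were each examined. Mxd3, a member of the Mxd family known from dividing cells, was at 16.7 FPKM in mNRPCs and 0.193 FPKM in retina, the latter an estimated 1.26 fragments. Its ratio was 86.5, with a wide counting interval of 19.3 to 4354. Mxd1, associated with differentiating cells, was at 1.20 FPKM in mNRPCs and 10.96 FPKM in retina (log2 ratio −2.44). Mxd4 was at 3.54 and 14.0 FPKM (−1.72), and Mga at 5.46 and 18.3 FPKM (−1.58). Mnt was at 4.95 and 10.5 FPKM (−0.95), 2.13-fold higher in retina by FPKM but not called by the log2 ratio, and Mxi1 at 3.24 and 3.33 FPKM (−0.03). Mxd3 and Myc were thus high in mNRPCs while Mxd1, Mxd4 and Mga were high in retina. Summed over these 6 genes, the competitors were at 35.1 FPKM in mNRPCs and 57.3 FPKM in retina. Mxd3 held 47.6% of that sum in mNRPCs and 0.338% in retina, where Mga was the largest part at 31.9%.

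The parallel branch around Mlx, which responds to glucose-derived signals, had less contrast. Mlx was at 13.5 FPKM in mNRPCs and 15.2 FPKM in retina, and Mlxip at 5.29 and 2.06 FPKM (log2 ratio 1.04). Mlxipl was listed at 0 in mNRPCs. Its retina value of 0.152 FPKM was an estimated 2.71 fragments, under the 3 fragments taken as the floor. Over the 8 partners that reached 1 FPKM in a library, 2 were at least 2-fold higher in mNRPCs and 3 at least 2-fold lower, with a median of −0.56. These shares of 25% and 37.5% lay near the 24.5% and 30.0% of all genes, and with equal FPKM sums the counts were 1 and 4.

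**Figure D2:**
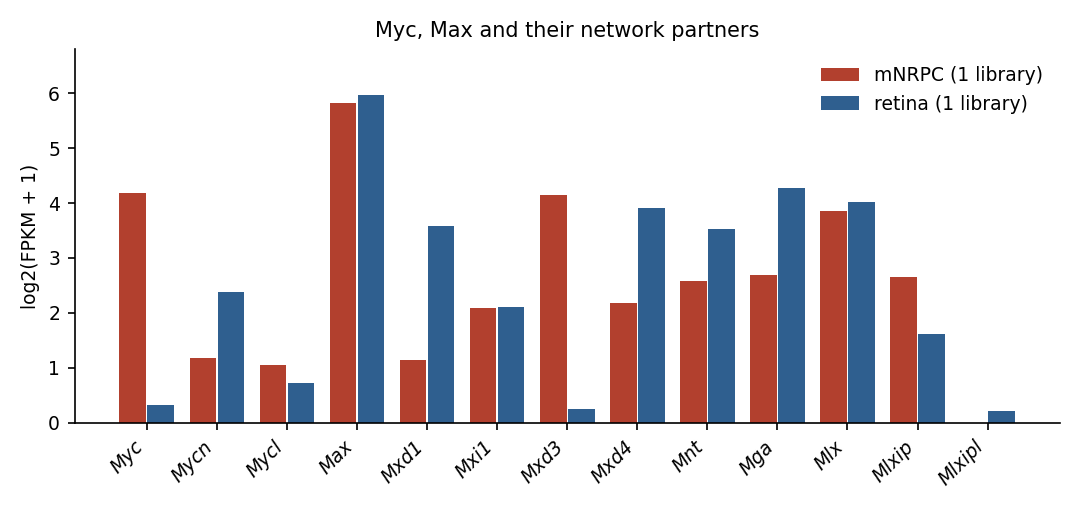
Bars from 0 show log2(FPKM + 1) of Myc, Max and their network partners, red for the mNRPC library and blue for the retina library. Myc and Mxd3 (17.3 and 16.7 FPKM in mNRPCs) are almost without a bar in retina, whereas Mycn, Mxd1, Mxd4, Mnt and Mga have the taller bar there.

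Among the nucleolar genes, the largest difference was that of Npm1, the gene of nucleophosmin, an abundant nucleolar chaperone. Npm1 was at 995 FPKM in mNRPCs, rank 96 among the genes compared, and at 145 FPKM in retina, rank 388. The ratio was 6.87 and the log2 ratio 2.77. Fbl encodes fibrillarin, the methyltransferase of box C/D snoRNPs, and was at 156 FPKM in mNRPCs and 33.8 FPKM in retina, a ratio of 4.62 (95% counting interval 3.98 to 5.40). Ncl, the gene of nucleolin, which acts on ribosomal RNA transcription and processing, was at 160.1 FPKM in mNRPCs and 89.5 FPKM in retina, a ratio of 1.79. Npm1 and Fbl were thus beyond 2-fold and Ncl inside it.

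The remaining nucleolar members encode snoRNP core proteins. Nop58 was at 56.7 FPKM in mNRPCs and 25.7 FPKM in retina (ratio 2.20, log2 ratio 1.11). Nop56, its partner in the box C/D particle, was at 64.9 and 43.9 FPKM (ratio 1.48, log2 ratio 0.55). Dkc1, the gene of dyskerin, the pseudouridine synthase of box H/ACA particles that also belongs to telomerase, was at 20.3 and 13.5 FPKM (ratio 1.51, log2 ratio 0.56). The 6 nucleolar genes were each higher in mNRPCs as deposited. They summed to 1454 FPKM in mNRPCs and 351 FPKM in retina, and Npm1 held 68.5% of this sum in mNRPCs and 41.2% in retina.

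Genes of one particle did not share a single ratio. In the box C/D core, Fbl (4.62) was farthest from 1, followed by Nop58 (2.20), Nop56 (1.48) and Snu13 (1.36). The retina order of levels was Snu13 (75.1 FPKM), Nop56, Fbl and Nop58, and the mNRPC order was Fbl, Snu13 (102 FPKM), Nop56 and Nop58. In the box H/ACA core, Gar1 had a ratio of 3.12 (34.2 and 10.9 FPKM) and Nhp2 of 2.89 (41.3 and 14.3 FPKM), while Dkc1 (1.51) and Nop10 (1.38, at 46.5 and 33.6 FPKM) were inside 2-fold. Snu13 and Nop10 turned to −0.07 and −0.04 on the log2 scale when the FPKM sums of both libraries were set equal.

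The size of these ratios depended on how the libraries were scaled. The FPKM values summed to 616860 in mNRPCs and 432256 in retina, and setting both sums equal moved the median log2 ratio of all genes to −0.68. On that scale 3 of the 10 genes were at least 2-fold higher and 1 at least 2-fold lower, beside 18.4% and 42.4% of 14961 genes. The log2 ratio was then 4.18 for Myc, 2.26 for Npm1 and 1.68 for Fbl, and −1.83 for Mycn. Nop58 fell inside 2-fold (0.62), and Ncl (0.32), Dkc1 (0.078) and Nop56 (0.051) came near 0. Nop58 was also inside 2-fold under upper quartile scaling (0.99) and with equal sums outside rod, cone and ribosomal protein genes (0.74). Relative to the median of all genes, Nop56 was at 0.67 as deposited and 0.74 after equal sums, Dkc1 at 0.68 and 0.76, Ncl at 0.95 and 1.01, and Nop58 at 1.23 and 1.30. The direction of each of the 10 genes was the same under the 5 scalings tried.

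**Figure D3:**
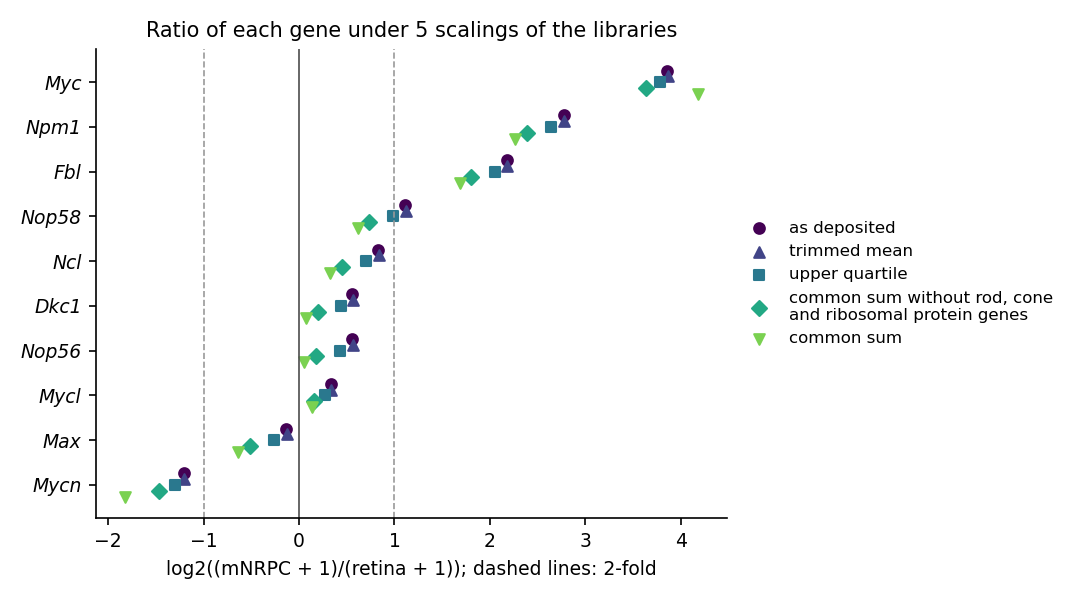
Log2 ratio of each of the 10 genes under 5 scalings of the libraries, with dashed lines at 2-fold. Myc, Npm1 and Fbl stay right of the upper line and Mycn left of the lower line in each scaling, whereas Nop58 crosses the upper line (1.11 as deposited, 0.62 with equal sums).

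Rows of single transcripts were compared next, although the share of a transcript is an estimate. Npm1 had 3 rows. The main row was NM_008722, with 748 FPKM in mNRPCs and 135 FPKM in retina, which was 75.2% and 93.1% of the gene. The shorter row NM_001252261, paired with a transcript of 1157 bases in GENCODE, was at 241 FPKM in mNRPCs and 9.97 FPKM in retina, a share of 24.2% against 6.88%. Npm1 thus differed in the makeup of its transcripts as well as in level, and its main row alone had a ratio of 5.55.

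Ncl rested mostly on the predicted row XM_006529238, which was at 137.5 FPKM in mNRPCs and 69.2 FPKM in retina. The curated row NM_010880 was at 22.6 and 20.3 FPKM, so with curated rows the log2 ratio of Ncl was 0.15 instead of 0.83. In Nop56 the row NM_024193 held 68.9% of the gene in mNRPCs and 60.1% in retina. In Max the row NM_001146176 held 78.2% and 78.9%, and in Nop58 the row NM_018868 held 81.1% and 82.8%, so the makeup of these 2 genes was nearly the same in both libraries. Fbl, Dkc1 and Mycn had 1 row each.

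**Figure D4:**
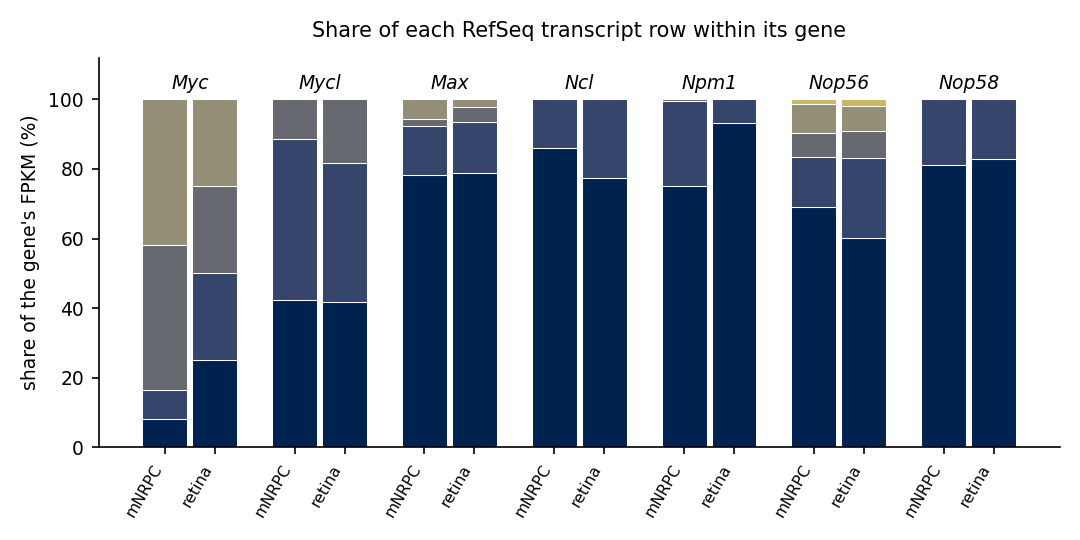
Stacked bars give the share (%) of each RefSeq transcript row in the FPKM of its gene, for the 7 genes with more than 1 row, in the mNRPC and the retina library. In Npm1 the second row widens from 6.88% in retina to 24.2% in mNRPCs, while Max and Nop58 have nearly equal bars. The retina bar of Myc rests on an estimated 2.80 fragments.

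Relatives of Npm1, Ncl and Fbl were examined. Of the 6 genes, Npm1, Ncl and Fbl included, 5 reached 1 FPKM in a library, of which 3 were at least 2-fold higher and 1 at least 2-fold lower, beside 24.5% and 30.0% of all genes. The median of these 5 was 2.18, the value of Fbl, a studied gene. The other 2, Npm3 (2.61) and Fbll1 (−3.36), lay far apart, so their median of −0.38 describes neither. Npm3, a nucleophosmin relative that binds Npm1, was at 111.8 FPKM in mNRPCs and 17.5 FPKM in retina (log2 ratio 2.61), close to Npm1. Npm2, known from oocytes, was listed at 0 in mNRPCs and was under the floor in retina. Fbll1, a fibrillarin relative, was also listed at 0 in mNRPCs, whereas its retina level was 9.27 FPKM. Fbl and Fbll1 therefore had opposite directions.

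To see how the 10 genes compare with the rest of the pathway, lists of its steps were counted. They were compiled with earlier results of these data known. Their counts are read against the 24.5% higher and 30.0% lower of all genes, or 18.4% and 42.4% with equal sums. Of 17 snoRNP genes, 6 were at least 2-fold higher in mNRPCs and 0 at least 2-fold lower, with a median log2 ratio of 0.56. The share of 35.3%, which includes the studied genes Fbl and Nop58, was above the 24.5% of all genes. But with equal sums 2 were higher and 0 lower. Without the 4 studied genes among the 17 the median was 0.46. The highest were Fbl, Gar1 (1.56) and Nhp2 (1.47), and the lowest were Nufip1 (−0.29) and Znhit3 (0.06), both assembly factors, and Nolc1 (0.26), a snoRNP chaperone.

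RNA polymerase I genes were mixed, with 4 of 17 at least 2-fold higher, 2 at least 2-fold lower and a median of 0.45. The 23.5% higher was about that of all genes (24.5%), and with equal sums 2 were higher and 3 lower. Polr1d, a subunit shared with RNA polymerase III, was at 221 FPKM in mNRPCs and 59.98 FPKM in retina (log2 ratio 1.86), and Taf1d at 44.5 and 19.4 FPKM (1.16). The highest ratio was that of Znrd1 (2.51), at 6.72 and 0.354 FPKM, of which the retina value was an estimated 1.29 fragments. The 3 lowest genes were promoter factors, although Taf1d is a subunit of the same complex as Taf1a and Taf1b. Ubtf, which organises active ribosomal DNA, was at 10.6 FPKM in mNRPCs and 26.5 FPKM in retina (−1.25), Taf1a at 4.27 and 13.3 FPKM (−1.44), and Taf1b, not called by its log2 ratio, at 4.94 and 10.5 FPKM (−0.96).

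Genes of the small subunit processome, which cleaves the rRNA precursor, lay between −0.65 and 1.79. Of 41, 7 were at least 2-fold higher (17.1%, below the 24.5% of all genes) and 0 at least 2-fold lower, and the median was 0.28. Wdr3, Nop14, Ddx10 and Aatf, which were not called, had FPKM ratios between 2.01 and 2.06. With equal sums 2 were higher and 1 lower, and the median turned to −0.16, which was 0.52 above that of all genes. The highest were Fcf1 (1.79, at 70.4 and 19.7 FPKM), Utp11 (1.62) and Wdr36 (1.44). The lowest were Nol10 (−0.65), Nol11 (−0.48) and Nat10 (−0.48). Late factors of the small subunit had 2 of 14 at least 2-fold higher (14.3%, below the 24.5% of all genes) and 0 lower, with a median of 0.31. With equal sums 1 was higher and 1 lower, and the median was −0.18. Rbis (1.62, at 266 and 85.9 FPKM), Riok1 (1.15) and Ltv1 (0.62) were highest, and Riok3 (−0.81), Rrp12 (−0.26) and Riok2 (−0.12) lowest.

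Of 45 assembly genes of the large subunit, 8 were at least 2-fold higher, 4 at least 2-fold lower and 33 between, with a median of 0.48. The 17.8% higher was below the 24.5% of all genes. With equal sums 2 were higher and 4 lower, and the median was −0.014. Nsa2 was at 99.7 FPKM in mNRPCs and 15.7 FPKM in retina (2.59). Gnl3, the gene of nucleostemin, was at 38.1 and 12.3 FPKM (1.55), and Nmd3, the export adaptor of the large subunit, at 49.2 and 18.3 FPKM (1.38). The lower genes were Rrp1b (−2.46, at 4.22 and 27.8 FPKM), Gnl3l (−1.47), Las1l (−1.41) and Mdn1 (−1.32). Gnl3 and its relative Gnl3l, which was at 12.6 and 36.9 FPKM, thus had opposite directions.

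RNA polymerase III makes 5S rRNA and tRNAs, and its 20 genes had a median of −0.10, next to that of all genes, with 4 at least 2-fold higher and 0 lower. These were 20% higher beside 24.5% of all genes, and with equal sums the balance turned to 2 higher and 4 lower. The higher genes as deposited were Gtf3c6 (1.85), Gtf3a (1.57), Gtf3c5 (1.14) and Polr3c (1.12). Gtf3a encodes the factor specific to the 5S rRNA gene and was at 32.6 FPKM in mNRPCs and 10.4 FPKM in retina. Gtf3c2 (−0.97), Bdp1 (−0.97) and Polr3gl (−0.64) were lowest, and Gtf3c2 and Bdp1 were 2.09-fold and 2.23-fold higher in retina by FPKM although not called by the log2 ratio.

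Among 32 textbook Myc targets outside the nucleolus, 31 reached 1 FPKM in a library. Of these, 21 (67.7%) were at least 2-fold higher in mNRPCs, beside 24.5% of all genes, 1 was at least 2-fold lower and the median was 1.5. With equal sums 15 were at least 2-fold higher, beside 18.4%. The cycling markers given above were higher in mNRPCs too, and their part in this count was not tested. Eif4ebp1, a brake on translation initiation, was at 155 FPKM in mNRPCs and 1.51 FPKM in retina (5.96). Cdk4, a kinase of the G1 phase, was at 417 and 26.8 FPKM (3.91). Nme2 was at 429 and 27.2 FPKM (3.93) and its neighbour Nme1 at 90.4 and 118 FPKM (−0.38), but the sequences of this pair are nearly alike, so the division of reads between them is uncertain. Ldha, of glycolysis, was at 898 and 738 FPKM (0.28, or −0.23 with equal sums), and Tfrc, the transferrin receptor, was the lower gene at 18.2 and 53.9 FPKM (−1.51).

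**Figure D5:**
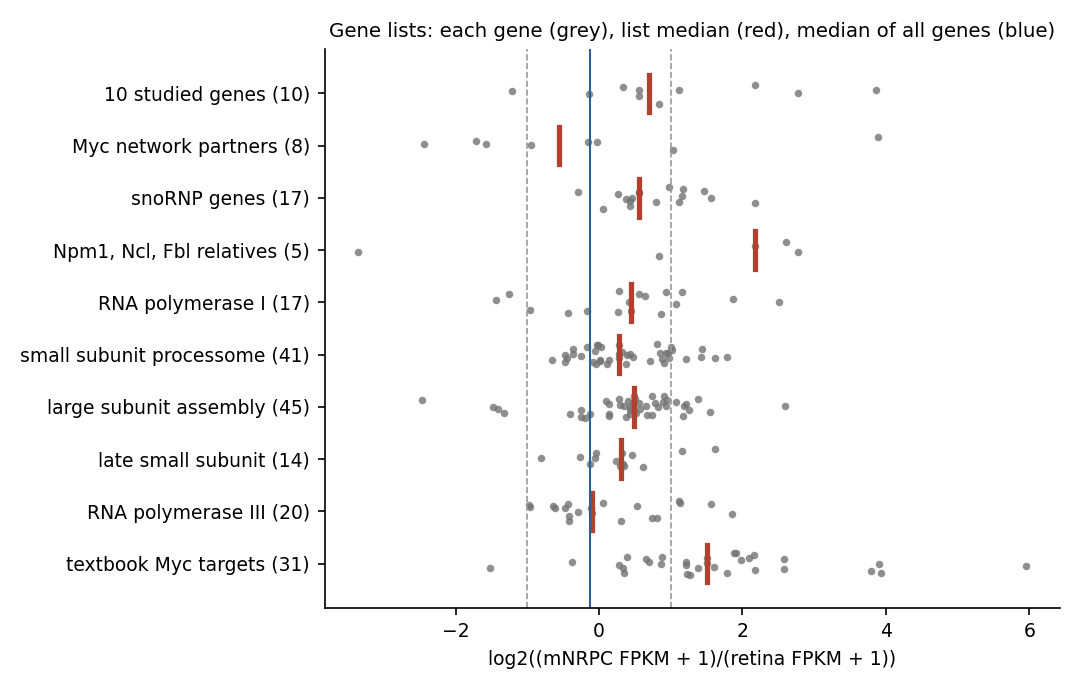
Log2 ratio of each gene (grey point) by list, with the number of genes of at least 1 FPKM, the list median (red) and the median of all genes (blue, −0.12); dashed lines mark 2-fold. The medians of the 3 subunit assembly lists lie between 0.28 and 0.48, with most genes inside 2-fold, and the textbook Myc targets have a median of 1.5.

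Promoters were searched for CACGTG, the Myc and Max site, on the strand of the gene (the motif reads the same on the other strand), from 250 bases before to 50 bases after the start site. Sequences and positions are those of RefSeq on GRCm38.p6. Of the 10 genes, 7 had a promoter entry (Dkc1, Max, Mycl, Mycn, Ncl, Nop56 and Nop58), and 1 of the 7, Max, held the motif. Myc, Npm1 and Fbl had no entry. The motif was in 8.09% of 27025 genes with a promoter entry and in 11.4% of the 10913 with at least 1 FPKM in a library. Among the lists it was in 0 of 14 snoRNP genes, 0 of 3 genes of the list of relatives, 9 of 34 processome genes, 7 of 37 large subunit genes, 3 of 10 late small subunit genes, 2 of 16 RNA polymerase I genes, 4 of 15 RNA polymerase III genes, 4 of 9 Myc network partners and 11 of 28 textbook Myc targets. Nme1, a target with the motif that was lower in mNRPCs (−0.38), is not among the windows printed. Windows of 26 bases are printed below, read along the gene's strand with the motif in capitals. They are for Max and 2 of its competitors and for 5 targets with the motif, from nearly level to far higher in mNRPCs (1 of 2 motifs is shown for Eif4e).
Max, chr12:76962236-76962261, minus strand: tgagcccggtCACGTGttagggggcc
Mnt, chr11:74830791-74830816, plus strand: ccacccaagcCACGTGtgcgcgcgcg
Mxd4, chr5:34187914-34187939, minus strand: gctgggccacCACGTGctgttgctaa
Cdk4, chr10:127063353-127063378, plus strand: ggcagccagtCACGTGccacacagcg
Cdk4, chr10:127063407-127063432, plus strand: gtcaaggggtCACGTGggatagcaac
Cdk4, chr10:127063427-127063452, plus strand: agcaacaggtCACGTGgccgtcaggg
Cdk4, chr10:127063514-127063539, plus strand: gggtgaagatCACGTGtccagaacgt
Eif4e, chr3:138527194-138527219, plus strand: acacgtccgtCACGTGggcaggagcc
Impdh2, chr9:108560316-108560341, plus strand: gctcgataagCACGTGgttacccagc
Hspd1, chr1:55088308-55088333, minus strand: ccggctgggaCACGTGaaaaggccgc
Ldha, chr7:46845649-46845674, plus strand: tgtcgcagcaCACGTGgagccactct
Ldha, chr7:46845746-46845771, plus strand: gcccagcctaCACGTGggttcccgca

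Genes with and without the motif were set side by side. In Max the motif spans the annotated start site, beginning 3 bases before it, and Max was nearly level as deposited (55.7 and 61.2 FPKM). Cdk4 had 4 motifs and a log2 ratio of 3.91, Eif4e, the cap-binding protein, 1.5, Impdh2, of guanine nucleotide synthesis, 2.17, and Hspd1, a mitochondrial chaperone, 2.10. Ldha, with 2 motifs, was at 0.28. Nme1, which also holds the motif, was at −0.38, with the division of reads from Nme2 uncertain. Mnt (−0.95) and Mxd4 (−1.72) hold the motif too and had higher values in retina. Of the textbook targets that reached 1 FPKM, 8 of 11 with the motif and 10 of 16 without it were at least 2-fold higher. Over all genes that reached 1 FPKM, 25.5% of 1247 with the motif and 24.2% of 9666 without it were at least 2-fold higher, and 24.1% and 29.5% at least 2-fold lower. A match of these letters is a description and not a measured binding site.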

How the data were processed

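RNA sequencing values of 1 mNRPC and 1 retina library were used. The deposited values were FPKM per RefSeq transcript, calculated by the authors. The submitters' processing notes name GRCm38.p3 and TopHat2 2.0.10, while the study's methods describe Bowtie 2 and eXpress, so the aligner behind this table is uncertain. Reads shared by transcripts are divided by estimation, and genes with processed copies, such as Npm1, can gain or lose reads.

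Accessions were matched without version to RefSeq (GRCm38.p6) and GENCODE M21, which named 74283 of 106754 rows, with 93.2% of the mNRPC FPKM and 89.9% of the retina FPKM, and rows of a gene were summed. Values below 1e-06 were read as 0. The pseudocount of 1 follows the study. Genes with at least 1 FPKM in a library were compared, at a threshold of 2-fold. Depth was read from the value at which low single-transcript genes of at least 1000 bases gather, taken as 1 fragment, which was tested on simulated data. With at least 500 bases it was 6.43e+06 and 4.91e+06 fragments. Fragment numbers of genes are estimates, and paired transcript lengths are approximate.

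Named from the lists were every Myc network partner and relative, and elsewhere the 3 highest and 3 lowest genes of at least 5 FPKM and those beyond 2-fold against the list median. Members and lists were chosen with earlier results of these data known. Python 3.11.15, pandas 2.3.3 and scipy 1.17.1 were used.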

Additional observations from a re-analysis of the deposited data

How the results depend on the processing

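Each of the 10 genes kept its direction under the alternatives for pseudocount, minimum, scaling, rows and accessions that gave it a value. Values nearest 0 were 0.15 for Ncl, 0.10 for Mycl, 0.078 for Dkc1, 0.051 for Nop56 and −0.13 for Max. The alternatives were not combined with each other. Over these the log2 ratio ranged from 2.08 to 6.05 for Myc, from −1.83 to −0.56 for Mycn, from 2.26 to 2.78 for Npm1, from 1.68 to 2.21 for Fbl and from 0.62 to 1.14 for Nop58. Of the 10 genes, 0 were at least 2-fold lower with a pseudocount of 5 or a minimum of 5 FPKM (which leaves out Mycn and Mycl), and 0 were at least 4-fold lower.

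Equal sums lower mNRPC relative to retina and also shrink the weight of the pseudocount, so the ratios of Myc, Mxd3 and Znrd1 rose. The median of all genes was then −0.68. List medians were 0.23 for the 10 genes, −1.08 for Myc network partners and 0.078 for snoRNP genes. They were 1.68 for Npm1, Ncl, Fbl and their relatives, 0.013 for RNA polymerase I, −0.59 for RNA polymerase III and 0.997 for Myc targets. The processome (−0.16), large subunit (−0.014) and late small subunit (−0.18) medians turned below 0, and were 0.52, 0.67 and 0.50 above the median of all genes. With equal sums outside rod, cone and ribosomal protein genes the median of all genes was −0.49. List medians were, in the same order, 0.45 (9 of the 10 genes, without Mycl), −0.90, 0.20, 1.80, 0.11, −0.44, 1.12, −0.043, 0.10 and −0.057.

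A pseudocount of 5 gave 0.25 for RNA polymerase I. Without a minimum, network partners were at −0.20 and relatives at 1.5. A minimum of 5 FPKM gave 0.97 for the 8 studied genes that passed and −0.95 for partners. The highest row per gene gave 0.98 for 9 (without Mycl) and −0.34 for partners, and versioned accessions −0.35 for partners. The cause of these shifts was not tested. Counting equal rows once and setting low genes to 3 fragments were added after seeing the data. Depth limits the retina values of Myc, Mxd3 and Znrd1. No paired analysis was possible because the mNRPC and retina groups hold 1 library apiece.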
